A study of Drosophila melanogaster with 15 samples.

Results

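Genes of Drosophila that have been annotated but not given a name of their own carry a computed-gene number, CG followed by digits. The genes described here are those of the left arm of chromosome 2, called 2L, whose symbol is such a number, chosen by arm and symbol alone and without any expression value, and leaving out CG14277. The annotation places 1141 such genes on 2L, of which 459 were in the count table of 8990 genes and 682 were not analysed here. Every gene in the table had a mean of at least 27 counts, so the 459 leave out genes of few reads. All 459 are protein-coding, 458 had enough counts to be tested, and the exons of 188 overlap those of another gene. The samples were brains of female late third-instar larvae grown at 25 ºC, 3 brains per library and 3 libraries per genotype from different days (batches 4, 5 and 6), read as polyadenylated RNA at 22.9 M to 28.3 M counted reads per library.

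Oregon is a standard laboratory strain, and the age of its larvae was not given. CDXY larvae carried C(1)DX, which joins 2 X chromosomes, with a Y and were dissected 5 days after egg laying. In CDXX the compound X was combined with a normal X chromosome, which makes 3 copies of X, and dissection was at 8 days. C2L larvae carried C(2L)SH1, a compound chromosome that joins 2 left arms of chromosome 2, and were dissected at 5 days. The label T2L is taken to mean C(2L)SH1/+, the stated genotype that no other label matches, and these larvae were dissected at 8 days. T2L thus holds 3 copies of each 2L gene and the other 4 groups hold 2. Age and copy number differ together between T2L and C2L and cannot be told apart in that comparison, and CDXX was the group of the same stated age with 2 copies of 2L. The genotype held for the whole larva, so a gene's level is a sum over all cells of the brain, and fewer cells of a type and less RNA per cell cannot be told apart.

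An extra chromosome arm gives each of its genes an extra template for transcription. Where nothing else alters a gene's activity, its RNA follows the number of copies, and 3 copies against 2 give a ratio of 1.5, or 0.585 on the log2 scale. A gene held nearer to its usual level is called buffered or dosage compensated. Flies carry a well studied compensation system for the X chromosome, in which a ribonucleoprotein complex with the MSL proteins and roX RNAs raises the single X of males, and no counterpart of it is known for a whole arm of the major autosomes.

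The CG-numbered 2L genes stood close to the copy ratio in T2L and at the level of the Oregon strain in every other genotype. Measured against the Oregon mean and after subtracting the median of genes off X and 2L, their median log2 ratio was 0.56, 0.56 and 0.59 in the 3 T2L libraries. It lay between −0.025 and 0.0066 in the 12 libraries of the other genotypes, so T2L did not overlap any of them. Within each batch the median T2L to C2L ratio, less that of genes off X and 2L, was 0.547 in batch 4, 0.561 in batch 5 and 0.565 in batch 6. The mean was 0.558 ± 0.0095 (SD, n = 3 batches), or 1.47-fold. The 1103 other 2L genes tested gave 0.528 ± 0.0099 (SD, n = 3), or 1.44-fold, lower than the CG-numbered genes in each batch. The 2 sets differ in read depth, and at like depth neither was higher throughout, as given below. In the fit on all libraries, the median was 0.577 for the CG-numbered 2L genes and −0.008 for genes off X and 2L. The difference of these fitted medians ranged from 0.543 to 0.585 when 1 library was left out. CG-numbered genes on other arms did not move with 2L: their median T2L to C2L log2 ratios were 0.02 on X, 0.03 on 2R, 0.05 on 3L and −0.01 on 3R.

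**Figure D1:**
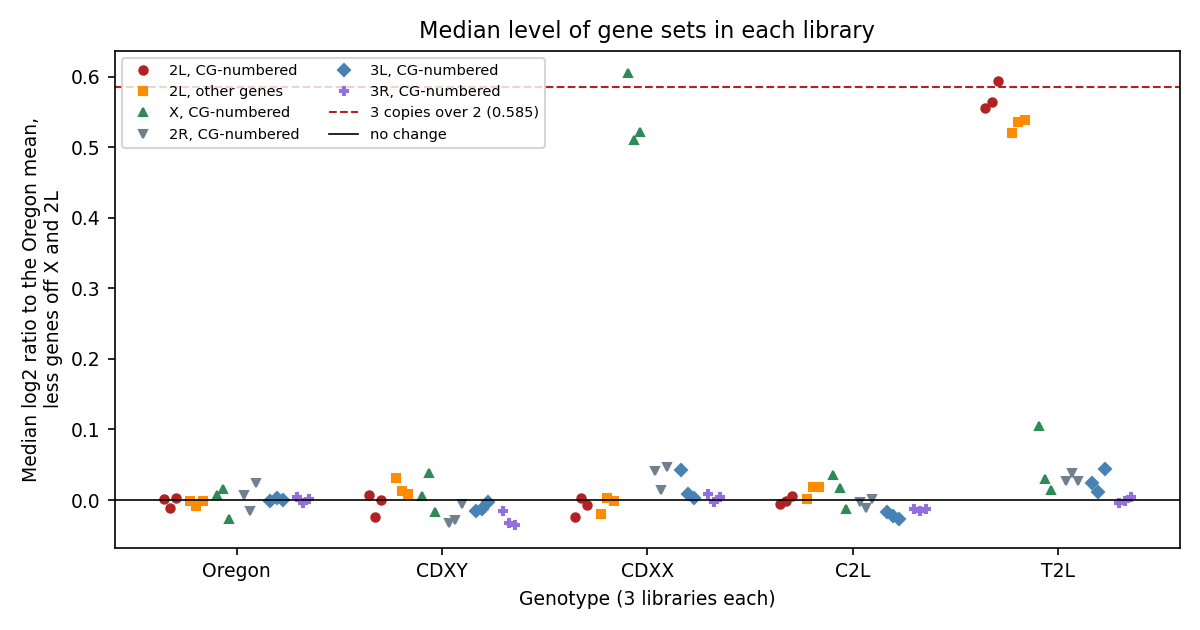
Each point is 1 library and gives the median log2 ratio to the Oregon mean of a gene set, less the median of genes off X and 2L (y axis), for 5 genotypes (x axis). CG-numbered 2L genes (red circles) sit near the dashed copy ratio of 0.585 in the 3 T2L libraries only, and CG-numbered X genes (green triangles) do so in the 3 CDXX libraries.

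Gene by gene, 272 of the 458 genes rose in T2L against C2L, 0 fell and 186 did not pass the test (edgeR quasi-likelihood test, adjusted p under 0.05 over the 8981 genes tested). That is 59.4% of the CG-numbered genes, beside 15.5% of all genes tested (13.7% higher and 1.8% lower) and 60.4% of the other 2L genes. The ratio was above 0 in 442 of 458 genes, and 357 had all T2L libraries above all C2L libraries, 2 had all of them below, and 99 overlapped, where among all genes 25.1% and 9.63% stood apart upward and downward. Genes that rose had log2 ratios from 0.32 to 3.85 with a median of 0.63. Genes that did not pass the test had a median of 0.43, and 170 of these 186 were above 0. Read depth went with the outcome of the test: the median level was 30.3 CPM (reads of a gene scaled to the size of its library) among genes that rose and 9.99 CPM among those that did not pass, with median standard errors of 0.13 and 0.25 on the log2 scale. Without 1 library the count of genes that passed ranged from 182 (without C2L batch 6) to 218 (without T2L batch 6).

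The spread of the ratios around 3/2 was wide. The middle 50% of genes lay between 0.42 and 0.80 on the log2 scale around a median of 0.58, and 246 genes (53.7%) were within 0.2 of log2(3/2), against 58.3% of the other 2L genes. There were 16 genes at or below 0, 25 above 0 and up to 0.25, 339 from there up to 1, and 78 above 1. Genes above 1 were 17.0% of the CG-numbered genes and 10.3% of the other 2L genes. The 2 sets differ in depth: 92 of 458 CG-numbered genes and 101 of 1103 other 2L genes had a mean of up to 5.37 CPM. Of the 78 CG-numbered genes above 1, 35 had a mean under 5 CPM, 50 rose by the test, and 43 were also higher in CDXX than in CDXY. In that comparison the copy number of 2L does not differ, but the ages are 8 and 5 days, as in T2L against C2L. Called higher there were 19.7% of all CG-numbered genes and 27.7% of all genes tested. At an unadjusted p of 0.05, 288 genes (62.9%) differed from no change and not from 3/2, 81 differed from both, 13 differed from 3/2 and not from no change, and 76 differed from neither. A p above that level does not show that a gene sits at 3/2.

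The 3 genes of at least 20 CPM whose fitted T2L to C2L ratio was closest to 3/2 were picked for that ratio, and their values show what it looks like library by library. CG2608 (FBgn0032870, arm 2L, positions 20645822 to 20647381 of dm6, forward strand) was at 21.1, 19.9 and 20.8 CPM in C2L and at 32.6, 31.6 and 28.5 CPM in T2L, for batches 4, 5 and 6. Its 12 libraries with 2 copies of 2L lay between 18.3 and 23.0 CPM, so only T2L was high. The log2 ratio was 0.59 with a standard error of 0.08 (adjusted p = 0.0005), and 0.53 ± 0.08 (SE) against CDXX. CG10338 had the same ratio to C2L of 0.59 with 25.7, 38.4 and 26.7 CPM in C2L and 46.0, 41.6 and 48.7 CPM in T2L (adjusted p = 0.0122). Here C2L batch 5 came near the lowest T2L library, and the call ended without C2L batch 4, C2L batch 6 or T2L batch 6 (adjusted p 0.0544 to 0.0805) and with only the 6 T2L and C2L libraries in the fit (adjusted p = 0.061). CG31635 went from 71.0 ± 4.9 to 107 ± 17.3 CPM (SD, n = 3; log2 ratio 0.59, adjusted p = 0.0119 by edgeR), a call that ended without C2L batch 6 or T2L batch 4 (adjusted p 0.067 and 0.0683).

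Among the 5 genes of highest mean CPM, 4 rose and 1 did not. CG9135 was at 392, 350 and 397 CPM in C2L and 513, 622 and 538 CPM in T2L, a log2 ratio of 0.55 ± 0.08 (SE; adjusted p = 0.00083). CG6770, the fly relative of the vertebrate stress-response gene Nupr1, was at 279, 258 and 272 CPM in C2L and 523, 394 and 483 CPM in T2L, a log2 ratio of 0.79 ± 0.20 (SE; adjusted p = 0.0158). CG5758 rose by 0.71 on the log2 scale from 211 ± 22.4 to 347 ± 46.4 CPM (SD, n = 3; adjusted p = 0.00848 by edgeR). In all of these genes the T2L libraries stood above the C2L libraries, though the call of CG6770 ended without C2L batch 5, C2L batch 6 or T2L batch 4 (adjusted p 0.0553 to 0.066) and that of CG5758 without C2L batch 6 (adjusted p = 0.0553). CG31705 had the largest rise of the 5 and is taken up with the departures from 3/2. CG17124, the gene of highest CPM, was at 432, 828 and 500 CPM in C2L and 366, 475 and 895 CPM in T2L, so the groups overlapped throughout (log2 ratio −0.02 ± 0.46 SE, adjusted p = 0.985). It was lowest in CDXX, at 133, 244 and 90.9 CPM, a range that reached 1 Oregon library at 204 CPM and none of the 11 others.

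**Figure D2:**
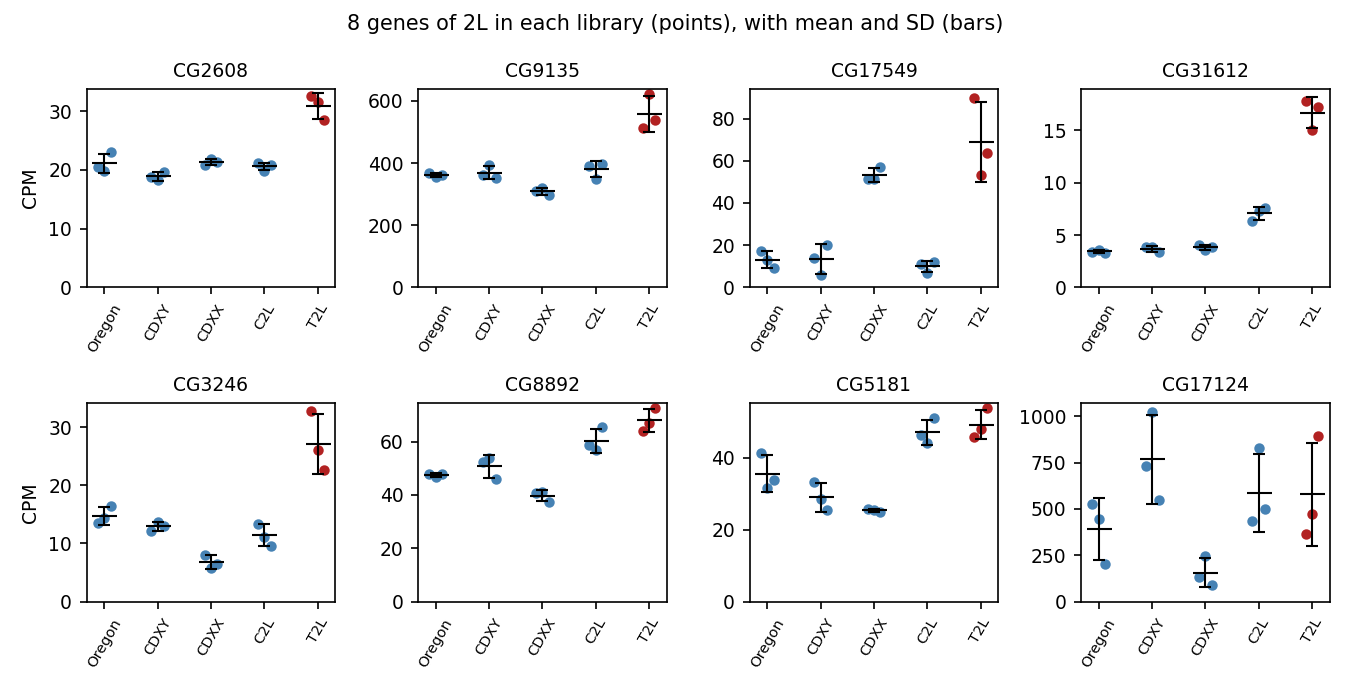
CPM (y axis, from 0) in each library (points) of 8 genes across 5 genotypes (x axis), with mean and SD as bars, T2L in red. CG2608 and CG9135 are high in T2L only, CG17549 is high in CDXX too, CG31612 is raised in C2L and again in T2L, and CG8892 and CG5181 differ little between C2L and T2L.

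Departure from the copy ratio was tested directly, by asking of each gene whether its T2L to C2L ratio differed from 3/2. The test called 11 of 458 genes, or 2.40%, with 9 above the copy ratio and 2 below, where 2.45% of all genes tested departed from their own expected ratio (1.88% above and 0.568% below), so the share among the CG-numbered genes was near the background. The split between above and below rested on the scaling: it was 8 above and 10 below with TMM factors from all genes, and 8 above and 11 below with DESeq2 size factors. With batch as a block in the model the test called 17 genes, 12 above and 5 below. Leaving out a library gave 6 genes without C2L batch 4, 4 without C2L batch 5, 1 without C2L batch 6, 4 without T2L batch 4, 7 without T2L batch 5 and 12 without T2L batch 6.

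CG17549 (FBgn0032774, 2L, 19387050 to 19390075, reverse strand) had the largest rise among genes of at least 5 CPM. It was at 11.0, 6.83 and 11.8 CPM in C2L and 89.9, 53.1 and 63.6 CPM in T2L, a log2 ratio of 2.80 ± 0.40 (SE; adjusted p = 0.000634). It was also high in CDXX, at 51.5, 51.3 and 56.9 CPM against 13.99, 5.79 and 20.04 CPM in CDXY, so both 8-day groups stood above the 5-day groups and Oregon. The difference between T2L and CDXX did not pass the test (log2 ratio 0.37 ± 0.37 SE, adjusted p = 0.45). CG31705 (2L, 11523021 to 11528205, reverse strand) was at 233, 149 and 133 CPM in C2L and 956, 593 and 425 CPM in T2L, a log2 ratio of 1.94 ± 0.29 (SE; adjusted p = 0.000773). In CDXX it was at 372, 399 and 350 CPM, between the 2 groups.

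CG2201, a choline kinase family enzyme of phospholipid synthesis, was at 10.9, 8.53 and 8.27 CPM in C2L and 29.1, 32.1 and 26.8 CPM in T2L, a log2 ratio of 1.67 ± 0.19 (SE; adjusted p = 0.00023). CG9331, the relative of the glyoxylate and hydroxypyruvate reductase GRHPR, was at 33.2, 22.5 and 32.8 CPM in C2L and 120, 71.7 and 81.4 CPM in T2L, a log2 ratio of 1.63 ± 0.24 (SE; adjusted p = 0.000682). Both enzyme genes were above the copy ratio to C2L by the direct test (adjusted p = 0.00994 and 0.0357). Both were also higher in CDXX than in CDXY, by 0.91 and 0.81 on the log2 scale. The log2 ratios of T2L to CDXX, 0.25 ± 0.18 and 0.51 ± 0.23 (SE), did not pass the test (adjusted p = 0.294 and 0.0977). The excess over 3/2 of CG17549 and CG31705 had adjusted p = 0.0107 and 0.0269. Those 4 departures ended without 1 library: CG17549 and CG2201 without C2L batch 5 or C2L batch 6 (adjusted p 0.0514 to 0.0737), CG31705 without C2L batch 5, C2L batch 6, T2L batch 4 or T2L batch 5 (0.06 to 0.136), and CG9331 without any 1 of the C2L libraries or T2L batch 4 (0.0614 to 0.137). The departures of CG31705 and CG9331 also ended with only the 6 T2L and C2L libraries in the fit (0.133 and 0.114).

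The 2 other genes among the 6 largest rises were CG10211 and CG9338. CG10211, of the haem peroxidase family, was at 4.97, 0.758 and 3.13 CPM in C2L and 17.2, 16.3 and 8.30 CPM in T2L, a log2 ratio of 2.24 ± 0.69 (SE; adjusted p = 0.0459). CG9338, of the Ly6 family of small membrane-anchored proteins, was at 58.4, 24.0 and 24.8 CPM in C2L and 158, 122 and 79.5 CPM in T2L, a log2 ratio of 1.74 ± 0.46 (SE; adjusted p = 0.0211). Both varied widely between libraries, neither departed from 3/2 by the test (adjusted p = 0.219 and 0.198), and both calls ended without any of C2L batch 5, C2L batch 6, T2L batch 4 or T2L batch 5 (adjusted p 0.0512 to 0.13). The call of CG10211 also ended under 4 other settings: TMM factors from all genes, DESeq2 size factors, the batch block, and the fit on 6 libraries (adjusted p 0.0514 to 0.0632). Both genes were also higher in CDXX than in CDXY, by 2.21 and 2.17 on the log2 scale (adjusted p = 0.022 and 0.00316 by edgeR). The log2 ratios of T2L to CDXX were −0.06 for CG10211 and −0.83 for CG9338 (adjusted p = 0.952 and 0.163).

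The other 5 genes above the copy ratio were CG4594, CG8673, CG42238, CG8460 and CG31612, of which all but CG31612 are named here after their values were seen. CG4594, of the enoyl-CoA isomerase family of fatty acid breakdown, was at 0.544, 0.265 and 0.313 CPM in C2L and 6.40, 6.35 and 3.65 CPM in T2L, a log2 ratio of 3.85 ± 0.39 (SE; adjusted p = 0.000157). Its low group was C2L and not T2L, since Oregon was at 5.06 ± 1.46 CPM and CDXY at 3.14 ± 0.96 CPM (SD, n = 3). Its departure from 3/2 (adjusted p = 0.000989) was the only one of the 11 that held whichever of the 6 libraries was left out. CG8460, the relative of the chitinase-domain gene CHID1, was at 71.6, 79.1 and 78.4 CPM in C2L and 135, 154 and 147 CPM in T2L, with 70.4 to 83.6 CPM in the 9 libraries of the 3 remaining groups. Its log2 ratio of 0.93 ± 0.07 (SE; adjusted p = 5.73e-05) was only 0.34 above the copy ratio (adjusted p = 0.0305). CG42238 was at 39.3, 51.7 and 46.2 CPM in C2L and 149, 104 and 99.7 CPM in T2L, and CG8673 at 0.87, 1.37 and 1.25 CPM in C2L and 3.91, 3.04 and 4.64 CPM in T2L. The departures of CG8460, CG42238 and CG8673 each ended without at least 3 of the 6 libraries, C2L batch 4 and C2L batch 6 in each case (adjusted p over all such losses 0.0632 to 0.137), and with the 6 libraries alone (0.114 to 0.132). That of CG8460 ended also with TMM factors from all genes (0.06) and with DESeq2 size factors (0.0601).

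On the low side, CG8892 and CG5181 were called below the copy ratio. CG8892 (2L, 4979513 to 4981592, reverse strand) was at 58.7, 56.7 and 65.6 CPM in C2L and 64.1, 67.1 and 72.7 CPM in T2L, a log2 ratio of 0.17 ± 0.08 (SE), which lay 0.41 below the copy ratio (adjusted p = 0.0224). CG5181, whose exons overlap CG5177 on the opposite strand by 68 bases, was at 46.2, 44.1 and 50.9 CPM in C2L and 45.8, 48.1 and 53.7 CPM in T2L, a log2 ratio of 0.06 ± 0.12 (SE; adjusted p = 0.0374 against the copy ratio). In both genes the C2L and T2L libraries overlapped. Against CDXX, however, both rose, CG8892 by 0.77 ± 0.08 and CG5181 by 0.95 ± 0.12 (SE) on the log2 scale (adjusted p = 3.41e-05 and 8.27e-05), and C2L itself lay above CDXX in every library. The departure of CG8892 ended without C2L batch 6, T2L batch 4 or T2L batch 5 (adjusted p 0.0802 to 0.108), that of CG5181 ended without any library but T2L batch 6 (0.0623 to 0.141), and both ended with the 6 libraries alone (0.0986 and 0.0688).

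Of the genes that rose, the 6 smallest, among genes of at least 5 CPM whose C2L and T2L library values did not overlap, were of CG14043, CG5787, CG6724, CG17712, CG4935 and CG7810, with log2 ratios from 0.32 to 0.35. In CG7810 86 exon bases overlap those of Mettl14 on the opposite strand. CG5787 was at 189, 201 and 201 CPM in C2L and 245, 241 and 259 CPM in T2L, a log2 ratio of 0.34 ± 0.07 (SE; adjusted p = 0.00581), and the call held without any 1 library. CG6724, the fly relative of the ribosome biogenesis gene WDR12, was at 48.6, 44.6 and 46.7 CPM in C2L and 52.0, 65.0 and 60.1 CPM in T2L (log2 ratio 0.34 ± 0.10 SE, adjusted p = 0.0385). CG4935, a WD-repeat gene related to WDR83, was at 13.1, 14.7 and 13.99 CPM in C2L and 17.4, 18.4 and 17.3 CPM in T2L (log2 ratio 0.35 ± 0.11 SE, adjusted p = 0.0493). None of the 6 departed from 3/2 by the test, with adjusted p from 0.0848 for CG5787 to 0.276 for CG4935. The calls of all but CG5787 ended without at least 4 of the 6 libraries: CG4935 without any of them, CG14043 without all but C2L batch 6, CG6724 without all but T2L batch 4, CG17712 without C2L or T2L batches 4 and 6, and CG7810 without C2L batches 4 and 6 or T2L batches 5 and 6 (adjusted p 0.0542 to 0.167). Those of CG14043, CG6724, CG17712 and CG4935 ended also with TMM factors from all genes (0.0616 to 0.101) and DESeq2 size factors (0.0609 to 0.11), and some ended with the 6 libraries alone (CG14043, CG6724, CG4935 and CG7810; 0.0569 to 0.0718) or with no filter on low counts (CG4935; 0.0652).

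The 16 genes at or below no change were mostly of low depth, with 13 under 5 CPM. The exceptions were CG17124, described above, CG10947 at 18.3 ± 3.5 CPM in C2L and 15.4 ± 6.4 CPM in T2L, and CG15353 at 8.00 ± 1.44 and 7.64 ± 2.86 CPM (SD, n = 3), both named after their values were seen. Of the 350 exon bases of CG15353, 246 overlap asRNA:CR45712 on the opposite strand. By the adjusted test 0 of the 16 departed from the copy ratio, and 6 had an unadjusted p under 0.05. Some of them kept the level of their stock in both 2L groups: CG33640, also named after its values were seen, was at 2.36, 4.06 and 2.86 CPM in C2L and 2.95, 3.08 and 2.54 CPM in T2L, and at or below 0.748 CPM in the 9 other libraries. Pairs of genes with the same counts in every library, CG18478 with CG31827, CG18477 with CG31780 and CG31775 with CG42586, cannot be told apart by these counts, and each pair counts as 2 genes above. The untested gene, CG33128, had 3756 counts in T2L batch 5 and 0 to 3 in the 14 other libraries.

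Along the arm the response showed no trend from tip to centromere, with modest differences between windows. In windows of 2 Mb counted from the tip, the median log2 ratio was 0.58, 0.58, 0.57, 0.59, 0.63, 0.54 and 0.51 in the first 7 windows. These held 41 to 61 genes each. Further in, the median was 0.53 in the window from 18 to 20 Mb (49 genes) and 0.62 in that from 20 to 22 Mb (35 genes). The highest and lowest of these windows, at 8 to 10 Mb and 12 to 14 Mb, differed by 0.12 on the log2 scale. The highest less the lowest window of each batch had an SD of 0.092 over the 3 batches, but these windows changed between batches. Less genes off X and 2L, they were at 0.661 (8 to 10 Mb) and 0.420 (10 to 12 Mb) in batch 4. In batch 5 they were at 0.665 (6 to 8 Mb) and 0.428 (4 to 6 Mb). Windows with fewer than 20 genes gave 0.45 at 14 to 16 Mb (17 genes), 0.56 at 16 to 18 Mb (16 genes) and 0.75 next to the centromere at 22 to 24 Mb (7 genes). In that last window the 20 other 2L genes also had their highest median, 0.71, against 0.47 to 0.55 in the 11 other windows. In windows of 4 Mb the lowest median was 0.51 at 12 to 16 Mb (58 genes) and the highest 0.65 at 20 to 24 Mb (42 genes). Within batches these windows were at 0.438 to 0.478 and 0.632 to 0.672. They were picked as the extremes of the fit on the same batches, so their separation there rests in part on that choice. The other 2L genes in these windows had 0.49 and 0.58. The 2 Mb window at 14 to 16 Mb had a median of only 1.86 CPM, and its median ratio had an SD of 0.35 over batches. Across the 458 genes the correlation of the log2 ratio with the gene's midpoint was 0.0022 (Pearson) and −0.028 (Spearman), over genes that share the same libraries. Adjacent genes resembled each other little, with a Pearson correlation of 0.096 over 457 neighbouring pairs and 0.16 over the 100 pairs less than 1000 bases apart.

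**Figure D3:**
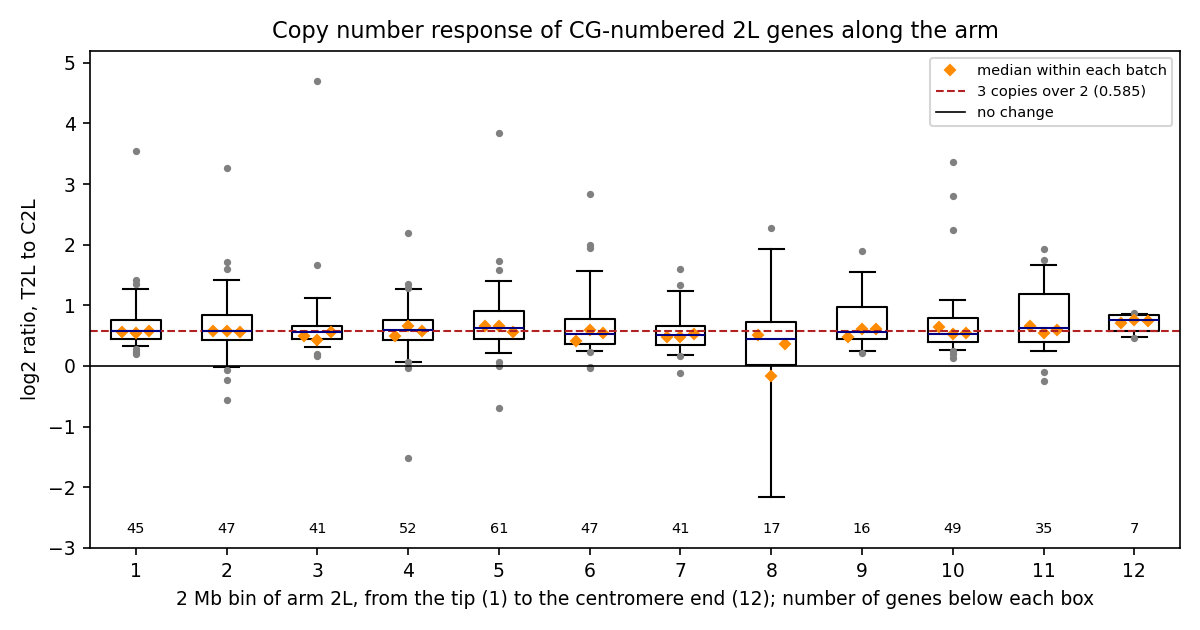
Log2 ratio of T2L to C2L (y axis) of the CG-numbered genes in 12 windows of 2 Mb from the tip to the centromere end of 2L (x axis): boxes span the quartiles around the median, whiskers the 5th to 95th percentiles, gray points lie beyond, and orange diamonds are medians within each batch. The medians of windows with at least 20 genes stay between 0.51 and 0.63, around the dashed copy ratio of 0.585.

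The windows with the highest and the lowest median were both made of genes on either side of the copy ratio. At 8 to 10 Mb the 3 genes of highest CPM were CG4364, CG7781 and CG13096. CG4364, the fly relative of the ribosome biogenesis gene Pescadillo, was at 231, 167 and 194 CPM in C2L and 374, 265 and 290 CPM in T2L (log2 ratio 0.65 ± 0.17 SE, adjusted p = 0.0228), and CG7781 at 155, 129 and 125 CPM and 261, 264 and 215 CPM (0.85 ± 0.24 SE, adjusted p = 0.0269). CG13096, whose name in RefSeq includes that of a yeast ribosome assembly factor, was at 127, 104 and 121 CPM in C2L and 138, 144 and 134 CPM in T2L, which did not pass the test (0.24 ± 0.11 SE, adjusted p = 0.175). At 12 to 14 Mb they were CG6770 and CG5787, described above, and CG16974, at 222, 231 and 221 CPM in C2L and 358, 313 and 338 CPM in T2L (0.58 ± 0.07 SE, adjusted p = 0.000271). The exons of CG16974 overlap those of Rsph1 on the opposite strand over 1027 of its 5528 exon bases, and reads over the shared bases cannot be told from that gene's without strand. The call of CG4364 ended without C2L batch 5, C2L batch 6 or T2L batch 4 (0.0873 to 0.113) and with the 6 libraries alone (0.0504), and that of CG7781 without C2L batch 5, C2L batch 6, T2L batch 4 or T2L batch 5 (0.0812 to 0.114).

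By depth, the fitted ratio was higher and far more scattered among genes of few reads. In 5 groups of 91 or 92 genes ordered by mean CPM, the median log2 ratio was 0.69 at 1.11 to 5.37 CPM, 0.60 at 5.46 to 16.5 CPM, 0.58 at 16.6 to 31.6 CPM, 0.50 at 31.6 to 58.7 CPM and 0.55 at 59.1 to 496 CPM. Genes off X and 2L in the same ranges of CPM had medians of 0.20, 0.03, −0.02, −0.04 and −0.02. The difference between CG-numbered 2L genes and those genes was thus 0.50, 0.57, 0.60, 0.54 and 0.58, with no order by depth. The other 2L genes in these ranges had medians of 0.74, 0.62, 0.52, 0.52 and 0.51. They were above the CG-numbered genes at 1.11 to 5.37, 5.46 to 16.5 and 31.6 to 58.7 CPM, and below them in the remaining ranges. The share of genes that rose went from 21.7% (20 of 92) in the group of lowest CPM to 73.6% (67 of 91) in that of highest CPM, and the median standard error fell from 0.44 to 0.12. In the fit the lowest group exceeded the highest by 0.14, and the difference within a batch had an SD of 0.079 over batches. Less all genes off X and 2L, the lowest group was at 0.549, 0.663 and 0.708 in batches 4, 5 and 6. The highest group was at 0.569, 0.541 and 0.596, so the lowest was not above it in batch 4. The difference in the fit was 0.24 without C2L batch 4, 0.26 without C2L batch 5, 0.22 without T2L batch 5 and 0.061 without T2L batch 6, and 0.23 when genes were ordered by CPM per kilobase of exon. Across genes the log2 ratio and log2 CPM had a correlation of −0.13 (Pearson) and −0.12 (Spearman).

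**Figure D4:**
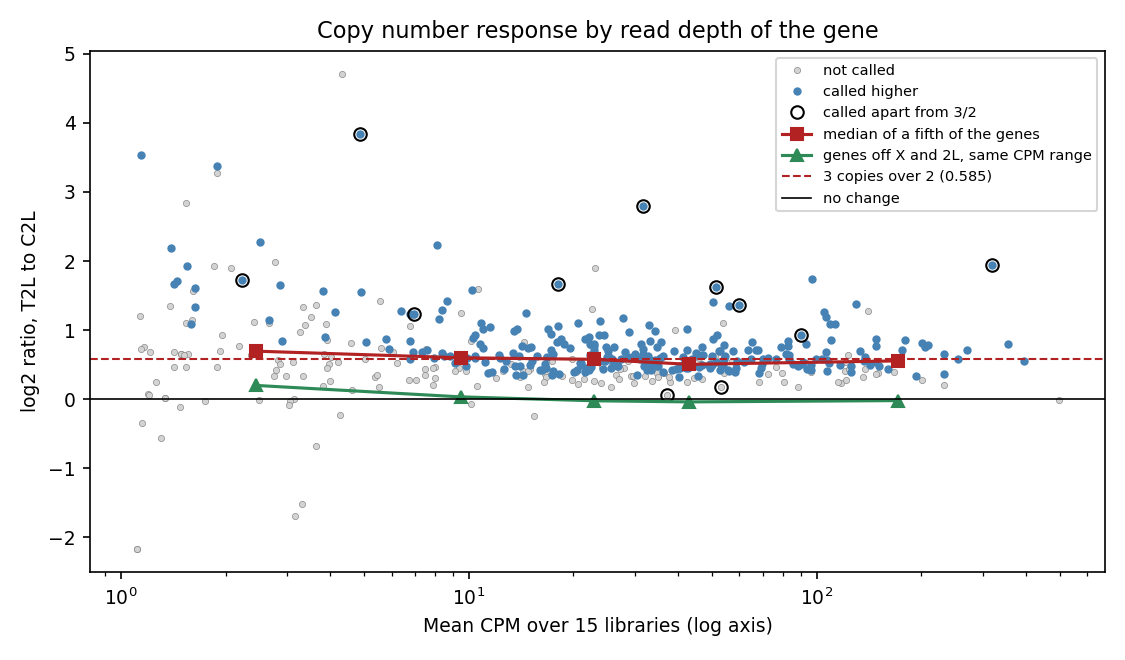
Log2 ratio of T2L to C2L (y axis) of 458 genes against mean CPM over 15 libraries (x axis, log scale), with called genes in blue and the 11 genes called apart from 3/2 ringed. Red squares are medians of 5 groups by CPM and green triangles those of genes off X and 2L in the same CPM ranges: the scatter narrows with CPM and the gap between the lines stays between 0.50 and 0.60.

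The median ratio differed little with gene structure. The median log2 ratio was 0.52 for the 73 genes with up to 1000 exon bases, 0.58 for the 168 with over 1000 and up to 2000, and 0.58 for the 217 with more, and the first of these varied with an SD of 0.13 over batches. The 47 genes with 1 exon block had a median of 0.50 and the 411 others 0.58, with SDs over batches of 0.12 and 0.0054. Genes on the forward strand had 0.56 and genes on the reverse strand 0.59. The 188 genes with exon overlap had 0.55 and the 270 without had 0.59, and of these 270, 153 rose.

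The copies of 2L can also be compared at the same stated age, in T2L against CDXX. There 283 of 458 genes rose and 5 fell, beside 37.4% of all genes tested called in either direction (18.5% higher and 18.9% lower), with a median log2 ratio of 0.61. The comparison shares the T2L libraries with the one above, and X differs in copy number too. CG31612 (FBgn0051612, 2L, 21762314 to 21795447, reverse strand) had the largest rise among genes of at least 5 CPM, at 4.03, 3.59 and 3.89 CPM in CDXX and 17.8, 15.0 and 17.3 CPM in T2L (log2 ratio 2.12 ± 0.13 SE, adjusted p = 5.57e-06). CG3246 was at 8.07, 5.69 and 6.51 CPM in CDXX and 32.7, 26.1 and 22.6 CPM in T2L (2.00 ± 0.17 SE, adjusted p = 1.28e-05). For CG3246 the CDXX libraries lay below those of CDXY, at 12.9 ± 0.8 CPM, and of C2L, at 11.4 ± 1.9 CPM (SD, n = 3). T2L also lay above C2L in this gene, by 1.25 ± 0.17 (SE) on the log2 scale (adjusted p = 0.000499). CG13117, at 13.2, 20.3 and 8.67 CPM in CDXX and 35.9, 38.4 and 85.1 CPM in T2L (1.92 ± 0.53 SE, adjusted p = 0.0129), did not differ from C2L (0.56 ± 0.51 SE, adjusted p = 0.513), and its call ended without CDXX batch 6 or T2L batch 6 (0.0677 and 0.0536). Another 5 genes, all under 5 CPM, had larger fitted rises than CG31612. The 5 genes that fell were under 5 CPM too, and are named after their values were seen: CG4594, the pair CG18478 and CG31827, and the pair CG18477 and CG31780, each pair with the same counts. CG31827 was at 1.47, 1.20 and 17.2 CPM in CDXX and at 0.337, 0.114 and 0.215 CPM in T2L (−4.88 ± 1.27 SE, adjusted p = 0.00952). The calls of both pairs ended without CDXX batch 6 (log2 ratios −2.57 and −2.22, adjusted p = 0.0697 and 0.0854), and that of CG4594 (−0.92 ± 0.33 SE, adjusted p = 0.0464) without any 1 of the 6 libraries (0.0524 to 0.163).

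Between groups with equal copies of 2L and equal stated age, C2L against CDXY, 13 genes were higher and 4 lower, 3.71% of 458 beside 2.82% of all genes tested (1.46% higher and 1.36% lower), with a median log2 ratio of 0.00. Against Oregon, 9 were higher in C2L and 4 lower, 2.84% beside 2.18% of all genes (0.924% higher and 1.26% lower), again with a median of 0.00. These comparisons share the C2L libraries. CG31612 was higher in C2L in both: it was at 6.38, 7.32 and 7.56 CPM in C2L, 3.84, 3.86 and 3.37 CPM in CDXY and 3.39, 3.59 and 3.30 CPM in Oregon (log2 ratios 0.94 ± 0.13 and 1.05 ± 0.13 SE, adjusted p = 0.00106 and 0.000596). In T2L it rose again over C2L, by 1.24 ± 0.13 (SE), above the copy ratio by the direct test (adjusted p = 0.0204), a departure that ended without any library but T2L batch 5 (0.0591 to 0.108) and with the 6 libraries alone (0.0789). CG9109 was at 16.3, 15.0 and 14.4 CPM in C2L, 7.64, 8.28 and 8.15 CPM in CDXY and 7.496, 7.95 and 8.10 CPM in Oregon (0.92 ± 0.16 and 0.96 ± 0.16 SE, adjusted p = 0.00575 and 0.00595). CG5096 was at 5.91, 6.52 and 7.45 CPM in C2L and 3.06, 2.33 and 2.09 CPM in CDXY (1.41 ± 0.20 SE, adjusted p = 0.00117), and at 3.57 ± 0.26 CPM in Oregon (SD, n = 3). Its call against Oregon (adjusted p = 0.0331) ended without any 1 of the 6 libraries (0.0568 to 0.148). The exons of CG5096 overlap those of gny on the same strand by 185 bases. Another 3 genes under 5 CPM, CG33640 among them, also stood higher in C2L in both comparisons, with larger fitted ratios than these.

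The 4 genes lower in C2L than in CDXY were CG4594, CG13284, CG31683 and CG18858, and the 4 lower than in Oregon were CG4594, CG11617, CG9147 and CG31800. CG4594, at the C2L levels given above, had the largest fall in both, against 3.88, 2.05 and 3.49 CPM in CDXY and 5.73, 3.38 and 6.07 CPM in Oregon (−3.05 ± 0.39 and −3.73 ± 0.39 SE, adjusted p = 0.000499 and 0.000128). CG13284 was at 2.36, 2.65 and 2.16 CPM in C2L and 9.09, 7.36 and 4.98 CPM in CDXY (−1.58 ± 0.28 SE, adjusted p = 0.0052), and did not differ from Oregon by the test (adjusted p = 0.872). CG11617 was at 0.290, 0.531 and 0.353 CPM in C2L and 4.37, 5.35 and 5.30 CPM in Oregon (−3.66 ± 0.45 SE, adjusted p = 0.000508), and its exons overlap those of mRpL10 and Tbc1d15-17 on the opposite strand. All these calls held without any 1 library of their comparison. These 3 genes had a mean under 5 CPM and are named after their values were seen.

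CG31683 and CG18858 are a pair of neighbours on the reverse strand. CG31683 (2L, 20447734 to 20449964) was at 44.4, 41.4 and 44.1 CPM in C2L and 86.7, 83.1 and 67.9 CPM in CDXY (log2 ratio −0.87 ± 0.12 SE, adjusted p = 0.00117). CG18858 (2L, 20456847 to 20459075) was at 47.2, 44.9 and 47.4 CPM and 91.6, 88.5 and 72.0 CPM (−0.85 ± 0.12 SE, adjusted p = 0.00117). Both were as low in Oregon as in C2L, at 45.7 ± 8.7 and 48.8 ± 8.9 CPM (SD, n = 3), and high in CDXX, at 78.4 ± 5.8 and 83.7 ± 6.6 CPM. The pair moved together in every library, and each overlaps a gene on the opposite strand (CG31688 by 172 bases, CG31687 by 132), so their counts are uncertain where reads of similar genes were shared. CG9147 was at 19.1 ± 0.9 CPM in C2L against 25.9 ± 2.9 CPM in Oregon, and CG31800 at 17.7 ± 0.8 against 22.8 ± 2.1 CPM (SD, n = 3). Their log2 ratios were −0.44 and −0.37 (adjusted p = 0.0379 and 0.0357 by edgeR), both calls ended without any library but Oregon batch 5 (0.0838 to 0.206), and with batch as a block they had adjusted p = 0.0576 and 0.0528. The count of genes called against Oregon was 8 without C2L batch 4, 5 or 6, and that against CDXY was 11 without CDXY batch 4.

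In trisomy X the median of the CG-numbered 2L genes stayed near 0, though many of them differed singly. In CDXX against CDXY 90 rose and 73 fell, 35.6% of 458 beside 42.8% of all genes tested (27.7% higher and 15.2% lower), with a median log2 ratio of −0.02. The split rested on the scaling, being 75 higher and 98 lower with TMM factors from all genes and 75 and 103 with DESeq2 size factors, and without CDXY batch 5 only 101 genes were called. Among genes of at least 5 CPM CG31808 had the largest rise, from 3.06, 2.57 and 6.30 CPM in CDXY to 74.3, 41.5 and 101 CPM in CDXX (log2 ratio 4.19 ± 0.94 SE, adjusted p = 0.00419). It shares 305 exon bases with Cyt-c-d on the opposite strand. CG5080 was at 28.1, 14.8 and 39.5 CPM in CDXY and 396, 214 and 311 CPM in CDXX (3.48 ± 0.51 SE, adjusted p = 0.000358), and CG31689, of the ABC transporter family, at 1.37, 0.724 and 4.98 CPM and 9.58, 7.68 and 18.6 CPM (2.34 ± 0.61 SE, adjusted p = 0.00899). All 3 stood apart between the groups, CG31689 least, with up to 4.98 CPM in CDXY and at least 7.68 CPM in CDXX. Their T2L to C2L ratios of 1.89, 1.28 and 1.42 did not pass the test (adjusted p 0.0864 to 0.169).

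The largest falls in CDXX among genes of at least 5 CPM were of CG17124, CG31886 and CG16854. CG17124 was at 735, 1024 and 546 CPM in CDXY and at the low CDXX levels given above (log2 ratio −2.30 ± 0.48 SE, adjusted p = 0.00284). CG31886 was at 6.62, 7.52 and 7.47 CPM in CDXY and 3.42, 2.59 and 4.67 CPM in CDXX (−1.01 ± 0.27 SE, adjusted p = 0.00942). CG16854 was at 15.4, 18.5 and 16.7 CPM and 9.09, 7.08 and 9.18 CPM (−0.998 ± 0.17 SE, adjusted p = 0.000887). None of the 3 fell in T2L against C2L, where their log2 ratios were −0.02, 0.68 and 0.43 (adjusted p 0.103 to 0.985).

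How a gene moved in CDXX went with where it sat around 3/2 in T2L. Those 2 comparisons share no library, but both set larvae of 8 days against larvae of 5 days. The 90 genes that rose in CDXX had a median T2L to C2L log2 ratio of 0.89, and 73 of them (81.1%) were above the copy ratio. The 73 genes that fell in CDXX had a median of 0.46, and 17 of them (23.3%) were above it. The 295 genes not called in CDXX had a median of 0.55. Genes off X and 2L split in the same way had medians of 0.22, −0.12 and −0.02, so that the CG-numbered 2L genes exceeded them by 0.67, 0.58 and 0.57. Over the 458 genes the 2 sets of log2 ratios had a correlation of 0.37 (Pearson) and 0.39 (Spearman). Of the 9 genes above the copy ratio by the test, 6 were also called higher in CDXX against CDXY, and 5 were higher in T2L than in CDXX. The shares of all 458 genes called so were 19.7% and 61.8%, and those of all genes tested 27.7% and 18.5%.

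**Figure D5:**
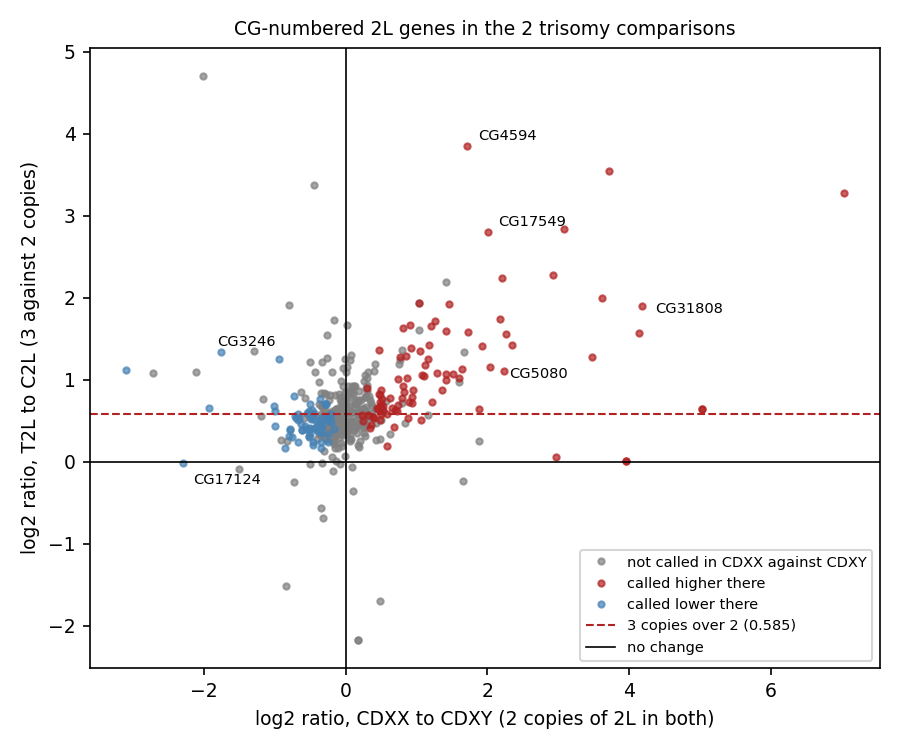
Log2 ratio of T2L to C2L (y axis) against that of CDXX to CDXY (x axis) for 458 CG-numbered 2L genes, colored by the call in CDXX against CDXY. Genes called higher in CDXX (red) lie mostly above the dashed copy ratio of 0.585, those called lower (blue) mostly under it, and CG17124 is low in CDXX with no difference in T2L.

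The difference of the 2 trisomy comparisons was tested for each gene. It was higher for 2L trisomy in 194 genes and lower in 1, beside 22.2% of all genes called (11.1% higher and 11.2% lower), with a median of 0.55 on the log2 scale. Among genes of at least 5 CPM the 3 largest differences were those of CG17124 (2.28 ± 0.66 SE, adjusted p = 0.0259), CG3246 (2.19 ± 0.24 SE, adjusted p = 0.000373) and CG31886 (1.69 ± 0.37 SE, adjusted p = 0.00639). In each of these 3 genes CDXX stood below CDXY. In CG3246 T2L also stood above C2L (log2 ratio 1.25), and in CG17124 it did not (−0.02). Under 5 CPM 8 genes exceeded CG31886, and CDXX was called below CDXY in 3 of them, above it in 1 and in neither direction in the rest. The one above was CG4594 (difference 2.13 ± 0.50 SE, adjusted p = 0.00904), at 8.52, 10.1 and 12.4 CPM in CDXX against 3.14 ± 0.96 CPM in CDXY (SD, n = 3; log2 ratio 1.72, adjusted p = 0.00208 by edgeR). In CG8673 (difference 1.90 ± 0.36 SE, adjusted p = 0.00276) CDXX and CDXY did not differ by the test (log2 ratio −0.17 ± 0.25 SE, adjusted p = 0.618). CG5080 was the only gene with a lower value, −2.20 ± 0.66 (SE; adjusted p = 0.0313), and there CDXX stood above CDXY. The difference in CG17124 lost its call without any of 6 of the 12 libraries (CDXY batch 5, CDXX batches 4 and 6, C2L batches 4 and 6, T2L batch 6; adjusted p 0.0577 to 0.0732), and that in CG5080 without any of 7 (CDXY batches 4 and 5, CDXX batches 4 and 6, C2L batch 4, T2L batches 5 and 6; 0.0541 to 0.087).

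The ratios of single genes repeated only in part between batches. The T2L to C2L log2 ratios of the 458 genes had Pearson correlations of 0.36 between batches 4 and 5, 0.38 between 4 and 6 and 0.34 between 5 and 6. For the 251 genes of at least 20 CPM these were 0.52, 0.75 and 0.49.

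Marker lists of the brain and of tissues that can be carried along in a dissection were read in the same libraries, and hold none of the genes described here. All 9 neuron markers were measured and summed to 1782 to 2396 CPM in C2L and 2207 to 2633 in T2L (1 higher), and the 5 neuroblast markers to 282 to 412 and 249 to 346 CPM (0 called). The 6 glia markers summed to 562 to 1060 CPM in C2L and 1051 to 1896 CPM in T2L (3 higher), and to 744 to 951 CPM in CDXY and 1953 to 2142 CPM in CDXX. The 9 muscle markers summed to 86.5 to 129 and 146 to 224 CPM (1 higher), 6 of 7 fat body markers to 29.1 to 176 and 9.84 to 25.6 CPM (2 lower), and the 6 hemocyte markers to 252 to 369 and 303 to 613 CPM (0 called). In salivary gland 6 of 7 markers summed to 24.9 to 67.1 and 3.58 to 35.1 CPM, in imaginal disc and eye all 8 to 324 to 409 and 312 to 316 CPM, and in ring gland 4 of 6 to 19.2 to 391 and 22.7 to 931 CPM (0 called in each). Of all the lists, 1 gene of the muscle list and 1 of the ring gland list were at 0 in some library. The part of cell composition in the ratios of the CG-numbered genes was not tested.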

How the data were processed

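Polyadenylated RNA was isolated and made into libraries with NEBNext kits, per the labels' protocols. The authors deposited 1 table of whole-number read counts, not normalized, with 15 libraries and 8990 genes. Per the submitters' processing notes, the tools were featureCounts for counting, STAR 2.7.10a for alignment (build dm6) and Trim Galore for trimming. Strandedness, multiple matches and any gene filter are not given in the sources used here. Overlapping, antisense and near-identical genes are therefore uncertain. Every gene had a mean of at least 27 counts, so the shares given leave out genes of few reads.

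Arms, positions and symbols came from the reference annotation (coordinates of dm6), matched by gene identifier for 8939 genes, with 51 unmatched. Positions are counted from 1. CPM and tests used R 4.3.3 and edgeR 4.0.16, with TMM factors computed from genes off X and 2L, since a whole arm changes copy number. The quasi-likelihood test (robust, 1 mean per group, all 15 libraries, no covariate) was run on 8981 genes that passed filterByExpr by group, with 9 removed. P-values are two-sided and adjusted by Benjamini and Hochberg over all genes tested, called under 0.05. The biological coefficient of variation was 24.9%. For the test against the copy ratio an offset of log(3/2) was put on 2L genes in the T2L libraries. Ratios within a batch used log2(CPM + 0.5). Medians, windows of 2 Mb, groups by CPM and correlations across genes are descriptions without a test. Genes are not independent replicates. Members and lists were chosen with earlier results of these data known.

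Named genes had a mean of at least 5 CPM. They were the 6 largest and 6 smallest rises without overlap in T2L against C2L, the 4 largest departures each way, the 5 of highest CPM, the 3 nearest to 3/2, the 3 largest each way in the other comparisons, and the 3 of highest CPM in the windows of lowest and highest median. Exceptions are marked.

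No library was a repeat of another: within groups they differed by 56.5 to 194 times what sampling variance gives. Libraries with the same batch label were made on the same day, which pairs them. For deviations from the group mean, 16 of 30 same-batch pairs correlated above 0.1 (median 0.14), against 14 of 60 pairs of different batches (median −0.044). Whether pools came from separate crosses is not stated, so the p-values rest on differences among days and brain pools. The scripts were tested on simulated counts. Alternatives were TMM factors from all genes, DESeq2 size factors, the Wald test of DESeq2 1.42.0, other filters, batch as a block, fewer libraries and fewer genes.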

Additional observations from a re-analysis of the deposited data

Results flagged for a closer look

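For 21 of the 39 CG-numbered 2L genes named by rule, the T2L to C2L ratio differed from the CDXX to CDXY ratio by a test of the difference itself (edgeR quasi-likelihood test, adjusted p under 0.05 over all genes). Some of the 39 were picked for the largest values in this same test and others for calls in its parts, so the count rests on that choice. Of all 458 CG-numbered genes 42.6% were called, beside 22.2% of all genes tested. Values are differences of log2 ratios, and positive ones mean a higher ratio in 2L trisomy. Among genes close to the copy ratio or of high CPM the difference was 0.408 in CG2608, 0.933 in CG10338, 0.809 in CG9135, 0.769 in CG5758 and 0.787 in CG16974. Among the smallest rises it was 0.476 in CG14043, 0.844 in CG5787, 0.48 in CG6724, 0.588 in CG17712 and 0.448 in CG7810. CG8892, called below the copy ratio, had 0.525. Among genes that differed between stocks it was 1.18 in CG31612, 0.731 in CG31683, 0.712 in CG18858, 0.776 in CG9147 and 0.889 in CG31800. Of the 39 genes, all of at least 5 CPM, the largest values were 2.28 in CG17124, 2.19 in CG3246, 1.69 in CG31886 and 1.43 in CG16854, genes lower in CDXX than in CDXY. CG5080 was the only one of the 21 with a negative value, −2.2. Of the 15 genes named after their values were seen, 6 differed too: 2.64 in CG11617, 2.13 in CG4594, 1.9 in CG8673 and 1.82 in CG13284, all under 5 CPM, and 0.893 in CG42238 and 0.808 in CG8460. A difference near 0.585 is what 3 copies of 2L against 2 give in a gene that does not differ between CDXX and CDXY.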

How the results depend on the processing

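No single gene followed under the alternatives turned in sign where it was called in either fit, and no median did, but the splits of called genes did. Changes of sign in genes called in neither fit were not counted. Departures from 3/2, 9 above and 2 below as reported, were 8 and 10 with TMM factors from all genes and 8 and 11 with DESeq2 size factors, and CDXX against CDXY went from 90 higher and 73 lower to 75 and 98, and 75 and 103. With only the 6 T2L and C2L libraries 255 genes were higher and 1 lower. The count of genes called in T2L against C2L was 272, and it was 232 with TMM factors from all genes, 293 with batch as a replicate block that pairs libraries of a day, 312 by the Wald test of DESeq2, 153 of 270 when genes with exon overlap were left out, and 182 to 218 without 1 library. Departures from the copy ratio, 11 as reported, were 18 with TMM factors from all genes, 19 with DESeq2 size factors, 17 with the block, 4 with only the 6 T2L and C2L libraries and 1 to 12 without 1 library. Counts without 1 library were 258 to 269 in T2L against CDXX, 101 to 167 in CDXX against CDXY, 11 to 16 in C2L against CDXY, 8 to 11 in C2L against Oregon and 164 to 192 for the difference of the 2 trisomy comparisons. The Wald test of DESeq2 gave 29 in C2L against CDXY and 26 in C2L against Oregon. The median log2 ratio less that of genes off X and 2L, 0.585 in the fit, was 0.543 to 0.585 without 1 library, 0.566 among genes of at least 5 CPM, and 0.565 among genes not called in CDXX against CDXY, a choice added after seeing the data. The difference between the lowest and highest CPM groups, 0.141, was 0.0613 to 0.256 without 1 library and 0.228 by CPM per kilobase, and that between position windows 0.112 to 0.173. Of 850 values of single genes under alternatives, 694 kept their side of the threshold and 156 lost the call. For single genes the block ended only the calls of CG10211 in T2L against C2L and of CG9147 and CG31800 in C2L against Oregon. TMM factors from all genes moved the median of all genes by −0.065 in T2L against C2L and −0.086 in CDXX against CDXY. The cause of these differences was not tested. Genes under 5 CPM had a median standard error of 0.45 on the log2 scale, so most differences of the size of 3/2 were not detectable there.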
